A study of Mus musculus with 13 samples.

Results

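The 10 genes read as p53 targets or as markers of cellular senescence were followed in mouse lung: Cdkn1a, Mdm2, Ccng1, Cdkn2a, Cdkn2b, Gdf15, Phlda3, Eda2r, Bax and Zmat3. They were chosen by symbol from the tables of estimated counts and TPM, and all 10 of them were present among 20270 genes. Bulk poly(A) RNA from the lower right lobe of mice of the C57BL/6J strain or background was sequenced in 13 libraries, read here as 1 per mouse. The control group held 4 wild-type lungs. Controls received sterile saline as vehicle. The WT bleomycin group held 5 wild-type lungs taken 14 days after 1 U/kg bleomycin by a single oropharyngeal aspiration, and the CB1R KO bleomycin group held 4 lungs of the same day and dose from mice with a global deletion of Cnr1, the gene of the cannabinoid receptor CB1R. Wild-type mice were male and 13 weeks old, the sex and age of the knockout mice are not given in the sources used here, and no knockout lung without bleomycin was analysed here. Genotype effects can therefore be read only within bleomycin-treated lungs.

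Bleomycin cuts DNA, and the transcription factor p53 is stabilised when DNA is damaged. Among the genes it switches on are a brake on the cell cycle (Cdkn1a), its own inhibitor (Mdm2), and genes of cell death, growth signalling and RNA processing. Senescence is a lasting exit from the cell cycle that is commonly marked by Cdkn1a, Cdkn2a and Cdkn2b and by the release of cytokines, proteases and their inhibitors. In the lung it is best known from injured alveolar epithelium and from fibroblasts in fibrosis.

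Sequencing depth ranged from 14615904 to 16662580 estimated counts in 12 libraries, and was 53463884 in CB1R KO replicate 11. Cnr1 itself had 41 to 188 estimated counts in the libraries labelled CB1R KO, and its level there was not called different from WT bleomycin (log2 fold change -0.53, SE 0.28, adjusted p = 0.367). The counts therefore gave no check of the genotype, and directions between the bleomycin groups below follow the labels.

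Promoter sequence was read for 9 of the 10 genes from RefSeq on GRCm38.p6, a build other than the one behind the counts. The 12 start-site windows of 300 bases, each with 250 bases before an annotated start and 50 after it, were searched for the p53 response element. This element is a pair of adjacent 10-base units, each made of purines, a core of 4 bases that opens with C, closes with G and holds only A or T between them, and pyrimidines. Its pattern reads the same on both strands. Both cores had to be intact and up to 3 other bases of 20 could differ. A match was found in 1 window, that of the upstream of the 2 annotated starts of Cdkn1a, and in 0.572% of all 32851 windows. The Cdkn1a match differed from the pattern at 1 base, a closeness reached by 0.0548% of all windows. It lay on chromosome 17 at chr17:29090928-29090947, from 51 to 32 bases before that start. No match was found in the other 11 windows, which says only that these letters are not in those 300 bases. The element is shown with its cores in capitals, and the 250 bases before each Cdkn1a start with the element in capitals, because Cdkn1a is the gene for which the sequence near a start and the measured change can be set side by side.
Cdkn1a element: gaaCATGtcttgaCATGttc
Cdkn1a upstream start, chr17:29090729-29090978, plus strand: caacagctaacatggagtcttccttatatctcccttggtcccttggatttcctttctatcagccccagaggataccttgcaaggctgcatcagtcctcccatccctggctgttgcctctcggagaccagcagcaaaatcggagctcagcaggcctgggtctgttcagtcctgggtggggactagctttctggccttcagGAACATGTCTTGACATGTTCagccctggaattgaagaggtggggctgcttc
Cdkn1a downstream start, chr17:29093519-29093768, plus strand: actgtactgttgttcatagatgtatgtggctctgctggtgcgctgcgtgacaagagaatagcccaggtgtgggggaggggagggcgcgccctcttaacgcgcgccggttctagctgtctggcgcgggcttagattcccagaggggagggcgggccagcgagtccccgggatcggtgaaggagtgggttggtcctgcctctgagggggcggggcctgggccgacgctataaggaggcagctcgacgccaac
The windows of the 2 starts lie 2790 bases apart. Transcripts were summed per gene in the files, so the counts below do not say which start was used.

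Bleomycin raised all 10 genes in WT lungs, where 25% of the 15315 genes tested were called higher than in control (quasi-likelihood test of edgeR, adjusted p under 0.05 after Benjamini and Hochberg). In each of the 10 genes every one of the 5 WT bleomycin libraries lay above all 4 control libraries, a separation seen in this direction in 21.5% of genes tested. The median log2 fold change of the 10 genes was 1.33, against -0.01 over all genes tested. Gdf15 rose 8.19-fold, Eda2r 5.53-fold, Cdkn1a 5.24-fold and Cdkn2a 4.45-fold, whereas Mdm2 rose 1.32-fold. In bulk tissue a change in the number of cells of a type and a change of RNA per cell cannot be told apart.

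**Figure D1:**
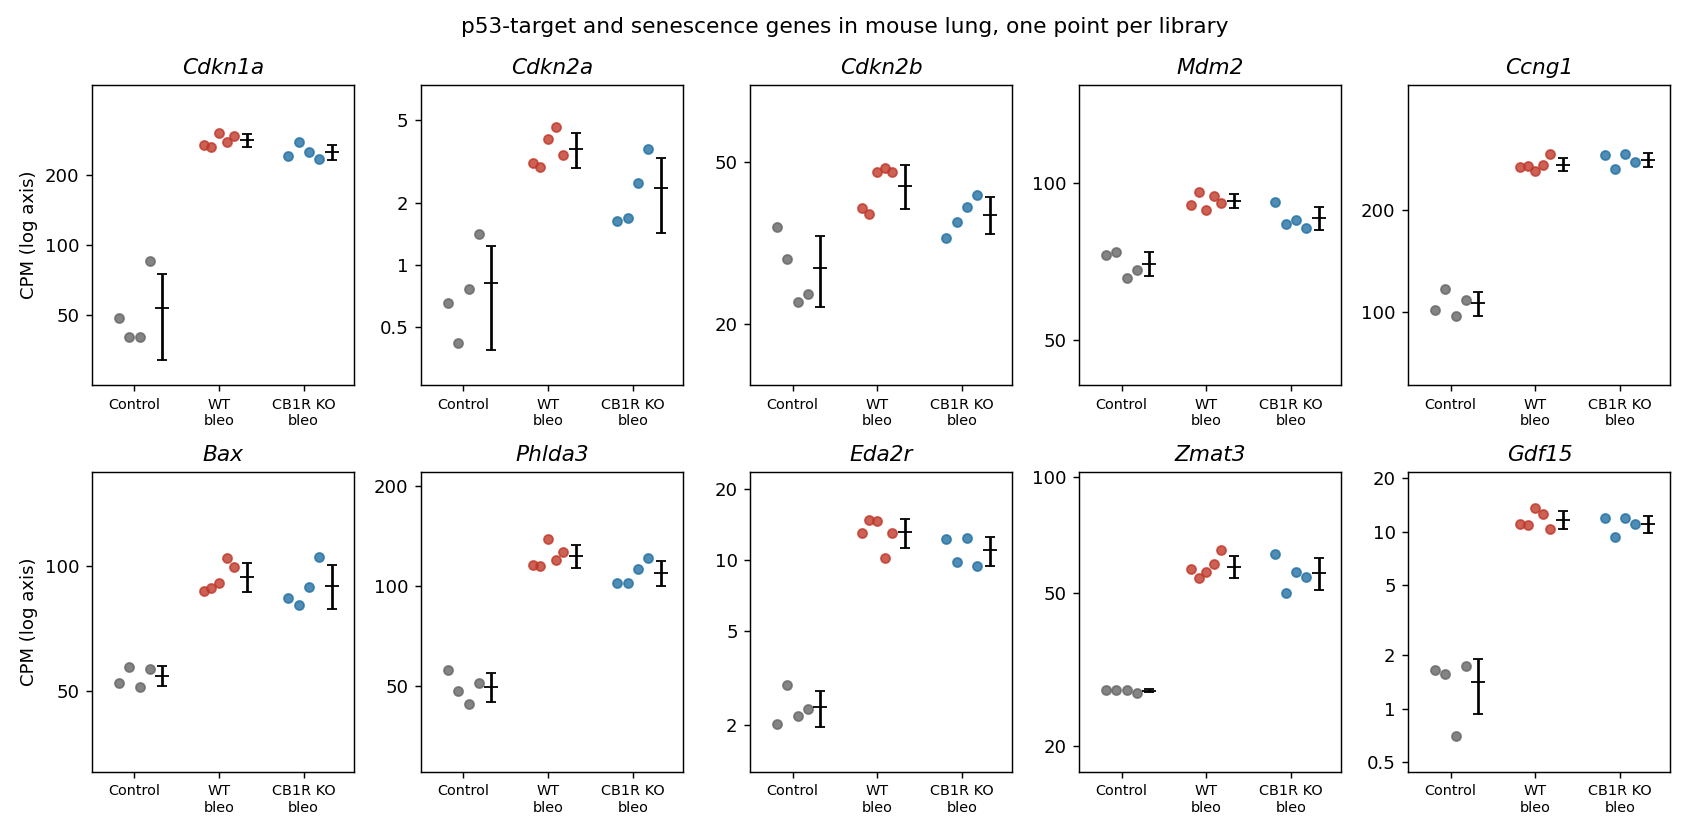
Level of each gene in CPM (estimated counts scaled to library size, logarithmic axes that differ between panels) in control (grey, n = 4), WT bleomycin (red, n = 5) and CB1R KO bleomycin lungs (blue, n = 4), 1 point per library, with the mean and SD in black. Every WT bleomycin point lies above every control point in all 10 panels, and the bleomycin groups overlap in all 10.

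Among the inhibitors of the cell cycle, Cdkn1a encodes p21, which blocks cyclin-dependent kinases. Its level, in CPM scaled by library size, was 48.7, 40.1, 40.5 and 85.2 in the control libraries, 267, 263, 304, 277 and 293 in WT bleomycin, and 240, 277, 250 and 235 in CB1R KO bleomycin. Control replicate 26 was the highest of its group, and lay below every bleomycin library, of which the lowest held 235 CPM. The log2 fold change of WT bleomycin against control was 2.39 (SE 0.18, adjusted p = 2.69e-07) and was 2.70 without control replicate 26.

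Cdkn2a encodes p16INK4a, an inhibitor of CDK4 and CDK6, and from a separate start p19ARF, which restrains Mdm2. It was a rare transcript, with 0.654, 0.421, 0.768 and 1.42 CPM in control, which are 11, 7, 12 and 22 counts. It stood at 3.10, 2.97, 4.06, 4.64 and 3.39 CPM in WT bleomycin and at 1.64, 1.69, 2.49 and 3.64 CPM in CB1R KO bleomycin. The WT bleomycin libraries were all above the control libraries (log2 fold change 2.15, SE 0.34, adjusted p = 0.000129). Of the CB1R KO libraries, 3 lay below all WT bleomycin libraries and replicate 11 lay among them. For Cdkn1a, Mdm2 and Phlda3, too, 3 CB1R KO libraries lay below all WT bleomycin libraries. The share of all genes with such a partial separation was not counted. The summed count of Cdkn2a does not separate the p16INK4a from the p19ARF transcript.

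Cdkn2b encodes p15INK4b, the neighbouring inhibitor of CDK4 and CDK6. Its levels were 34.6, 28.8, 22.7 and 23.7 CPM in control, 38.6, 37.1, 47.1, 48.2 and 47.3 in WT bleomycin, and 32.5, 35.5, 38.8 and 41.4 in CB1R KO bleomycin. WT bleomycin was above control without overlap (log2 fold change 0.67, SE 0.13, adjusted p = 0.000586), whereas CB1R KO replicate 8 lay below control replicate 3. Of the 3 inhibitors, Cdkn2b thus had the smallest fold difference after bleomycin.

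Mdm2, the ubiquitin ligase that removes p53 and is itself a p53 target, moved within a narrow range. It was at 72.9, 73.6, 65.8 and 68.1 CPM in control, 90.8, 96.1, 88.8, 94.3 and 91.5 in WT bleomycin, and 91.7, 83.4, 84.8 and 82.1 in CB1R KO bleomycin. The rise of WT bleomycin over control was the lowest of the 10 genes (log2 fold change 0.40, SE 0.05, adjusted p = 4.1e-05), yet the groups did not overlap.

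Ccng1, which encodes cyclin G1, an atypical cyclin induced by p53, varied little within each group. The control libraries held 102, 117, 97.5 and 108 CPM, the WT bleomycin libraries 268, 270, 261, 273 and 293, and the CB1R KO bleomycin libraries 291, 264, 293 and 278. By p-value Ccng1 ranked 3 of 15315 genes in WT bleomycin against control (log2 fold change 1.36, SE 0.06, adjusted p = 1.3e-08) and 1 of 15315 in CB1R KO bleomycin against control (log2 fold change 1.41, SE 0.07, adjusted p = 4.61e-08).

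Of the genes tied to cell death and growth signalling, Bax encodes a pore-forming protein of the mitochondrial death pathway. It rose from 54.4 ± 2.97 CPM (SD, n = 4) in control to 94.1 ± 7.57 CPM (n = 5) in WT bleomycin, with control libraries between 51.4 and 57.3 and WT bleomycin libraries between 87.0 and 104.6 (log2 fold change 0.79, SE 0.08, adjusted p = 3.9e-06). Phlda3, whose product competes with the kinase Akt for membrane lipids, rose from 49.8 ± 4.93 to 123 ± 9.66 CPM (log2 fold change 1.30, SE 0.08, adjusted p = 6.9e-08). In neither gene did the control and WT bleomycin libraries overlap.

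Eda2r, a receptor of the tumour necrosis factor family that binds ectodysplasin A2, was scarce in control lungs, at 2.02, 2.94, 2.18 and 2.32 CPM. It stood at 12.9, 14.8, 14.6, 10.2 and 13 CPM in WT bleomycin and at 12.3, 9.77, 12.4 and 9.43 CPM in CB1R KO bleomycin. All 9 bleomycin libraries were thus above all 4 control libraries (WT bleomycin against control, log2 fold change 2.47, SE 0.16, adjusted p = 8.68e-08).

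Zmat3, a zinc finger protein that binds RNA and is a direct p53 target, had nearly the same level in each control lung, at 28.1, 28.1, 27.9 and 27.4 CPM. The WT bleomycin libraries held 57.7, 54.6, 56.7, 59.5 and 64.7 CPM and the CB1R KO libraries 63.3, 50.2, 56.7 and 54.9 CPM. WT bleomycin was 2.10-fold higher than control (log2 fold change 1.07, SE 0.07, adjusted p = 9.55e-08).

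Gdf15, the secreted stress cytokine of the set, had the largest fold change of the 10. It was at 1.66, 1.56, 0.704 and 1.74 CPM in control, which are 28, 26, 11 and 27 counts, and at 11.0, 10.9, 13.6, 12.6 and 10.3 CPM in WT bleomycin. The CB1R KO bleomycin libraries held 12, 9.35, 11.9 and 11.1 CPM. The bleomycin groups lay on top of each other and well above control (WT bleomycin against control, log2 fold change 3.03, SE 0.20, adjusted p = 8.85e-08).

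**Figure D2:**
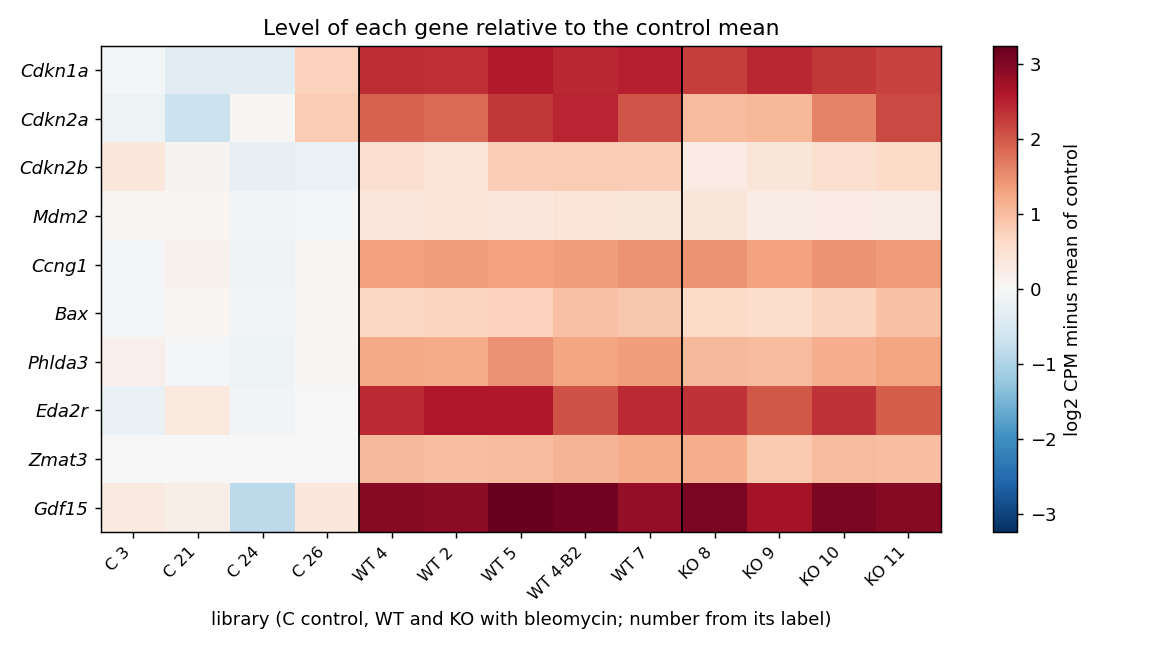
Log2 CPM of each gene (rows) in each of the 13 libraries (columns, vertical lines between groups) minus the mean of the 4 control libraries, on a colour scale centred on 0. Gdf15, Eda2r, Cdkn1a and Cdkn2a are the darkest rows in the WT bleomycin libraries, and Cdkn2a is paler than Ccng1 in CB1R KO replicates 8 and 9.

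Levels between genes were compared as TPM, which allows for transcript length. In control lungs Bax was highest at 104.7 ± 4.45 TPM (SD, n = 4), followed by Phlda3 at 56.3 ± 6.19, Cdkn1a at 45.7 ± 15.9 and Ccng1 at 44.7 ± 3.44, and Mdm2 and Cdkn2b followed at 33.7 ± 2.27 and 32.3 ± 7.06. The range of Cdkn1a overlapped those of Phlda3, Ccng1, Mdm2 and Cdkn2b, and the range of Cdkn2b overlapped those of Ccng1 and Mdm2. Zmat3 was at 5.20 ± 0.24 TPM, and Gdf15, Cdkn2a and Eda2r were below 3 TPM in every control library.

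After bleomycin Cdkn1a moved to the top of that order. In WT bleomycin lungs it was at 245 ± 13.7 TPM (n = 5), above Bax at 187 ± 11.8, Phlda3 at 142 ± 9.54 and Ccng1 at 118 ± 5.28, and these 4 ranges did not overlap. Cdkn2b (52.3 ± 4.91 TPM) and Mdm2 (45.5 ± 2.11) overlapped, as did Gdf15 (14.0 ± 1.37) and Zmat3 (12.03 ± 0.89). Cdkn2a (7.58 ± 1.27 TPM) and Eda2r (4.34 ± 0.75) were last and did not overlap. In CB1R KO bleomycin lungs the means stood in the same order, but Phlda3 (130 ± 9.02 TPM, n = 4) and Ccng1 (125 ± 6.94) overlapped there, as did Cdkn2a (5.00 ± 1.78) and Eda2r (3.63 ± 0.60).

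The comparison of the bleomycin groups asks whether the deletion of CB1R altered these genes in injured lung. None of the 10 genes was called different between CB1R KO and WT bleomycin lungs by edgeR's quasi-likelihood test, 0 of them had an unadjusted p under 0.05, and in 0 of them did the groups fail to overlap. Over all genes tested, 0.979% were called in this comparison, 17% had an unadjusted p under 0.05 and 5.6% did not overlap. DESeq2 also called 0 of the 10 and put 0 under an unadjusted p of 0.05, and limma on log2(TPM + 1) called 0 and put 1 there.

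The estimates were below 0 for 9 of the 10 genes, with a median log2 fold change of -0.14 against 0.00 over all genes tested. Cdkn2a had the estimate farthest from 0, at -0.58 (95% interval -1.20 to 0.05, adjusted p = 0.34). It depended on CB1R KO replicate 11, without which it was -0.90 (adjusted p = 0.167). With the style of the sample labels (capital or lower-case letters, the former in 3 libraries) as a term, the median was -0.08, and the estimates were -0.36 for Cdkn2a and -0.01 for Cdkn1a. Eda2r followed at -0.26 (-0.56 to 0.04) and Cdkn2b at -0.23 (-0.50 to 0.03). Several intervals were narrow. That of Ccng1 ran from -0.09 to 0.18 around 0.04, that of Zmat3 from -0.21 to 0.09 around -0.06, and that of Bax from -0.24 to 0.11 around -0.07. Cdkn1a was at -0.17 (-0.53 to 0.20), Phlda3 at -0.17 (-0.34 to 0.005) and Mdm2 at -0.11 (-0.23 to 0.005). Gdf15 was at -0.08 (-0.42 to 0.27).

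**Figure D3:**
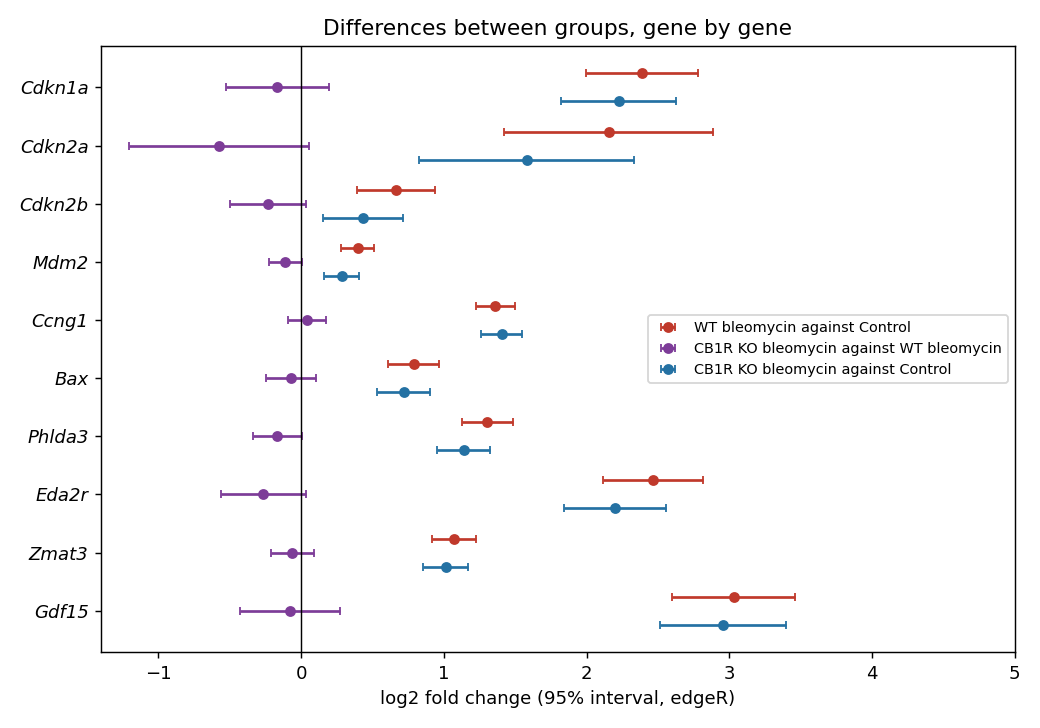
Log2 fold change from edgeR for each gene, with a 95% interval derived from its test statistic. Colours show WT bleomycin against control (red), CB1R KO against WT bleomycin (purple) and CB1R KO bleomycin against control (blue). The purple intervals all include 0, and the red and blue ones all lie above it.

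Against control, the CB1R KO bleomycin lungs also had all 10 genes called higher, where 19% of genes tested were called higher. In 9 of the 10 all 4 libraries were above all control libraries, which 17.7% of genes tested showed in this direction. The exception was Cdkn2b (log2 fold change 0.43, SE 0.13, adjusted p = 0.0198), with 3 of 4 CB1R KO libraries above every control. Its call was lost without control replicate 24 (0.35, adjusted p = 0.065), without control replicate 26 (0.37, adjusted p = 0.0643) and without CB1R KO replicate 11 (0.38, adjusted p = 0.058). The log2 fold changes of the other 9 ran from 0.29 for Mdm2 to 2.96 for Gdf15. This comparison and that of WT bleomycin share the 4 control libraries, so their values are not independent of each other.

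A further 5 lists of genes around p53 and senescence, 96 genes in all, were read beside the 10. Of 26 other p53 targets, 9 were called higher and 5 lower in WT bleomycin than in control, with a median log2 fold change of 0.15, beside 25% and 23.9% of all genes tested. The genes called higher included Aen, a nuclease of apoptosis (log2 fold change 1.02, adjusted p = 2.64e-07), the death receptor Tnfrsf10b (1.36, adjusted p = 8.49e-07) and Sfn, the epithelial 14-3-3 sigma that holds cells in G2 (2.03, adjusted p = 1.61e-06). Those called lower included the stress-response gene Sesn1 (-0.80, adjusted p = 4.03e-06), the ribonucleotide reductase subunit Rrm2b (-0.79, adjusted p = 3.22e-05) and the nucleotide excision repair gene Xpc (-0.75, adjusted p = 3.24e-05). Calls in both directions were also common over all genes tested, so these counts say little about other p53 targets as a group. Of the 26, 12 were not called.

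Of 14 genes for p53 and its regulators, 3 were called higher and 3 lower, with a median log2 fold change of 0.01, shares near the 25% and 23.9% of all genes tested. Trp53 itself, the p53 gene, rose 1.24-fold (log2 fold change 0.31, SE 0.08, adjusted p = 0.00454). The checkpoint kinases Chek1 (2.83, adjusted p = 0.000177) and Chek2 (0.60, adjusted p = 0.01) rose as well. Chek1 was rare in control, at 0 to 1.08 CPM, and its log2 fold change was 3.70 without control replicate 21 and 1.46 by limma on log2(TPM + 1). The acetyltransferase Ep300 fell by 0.43, the p53 inhibitor Mdm4 fell by 0.27 and the p53 relative Trp73 fell by 0.50 on the log2 scale (adjusted p = 0.00351, 0.0118 and 0.0261). The call of Mdm4 was lost with limma on log2(TPM + 1) (adjusted p = 0.105), on log2(TPM + 0.1) (adjusted p = 0.104) and with lower-case labels only (adjusted p = 0.0836). The call of Trp73 was lost without control replicate 21, control replicate 26, WT bleomycin replicate 2 or WT bleomycin replicate 7, with log2 fold changes of -0.47, -0.40, -0.40 and -0.49.

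Genes that drive division rose beside the inhibitors that halt it. All 12 cell division genes were called higher after bleomycin in WT lungs, beside 25% of all genes tested, with a median log2 fold change of 2.38, among them the proliferation marker Mki67 (2.63, adjusted p = 1.15e-06), the mitotic kinase Cdk1 (3.21, adjusted p = 3.31e-06) and the topoisomerase Top2a (2.81, adjusted p = 4.21e-06). Of 17 genes of the cyclin, CDK and Rb axis, 11 were called higher and 3 lower, the latter a share below the 23.9% of all genes tested. Cyclin D1 (Ccnd1) rose by a log2 fold change of 0.88, E2f1 by 0.91 and cyclin E1 (Ccne1) by 1.75. The inhibitors Cdkn1b and Cdkn1c fell by 0.72 and 0.59, and Rbl2, an Rb relative of resting cells, fell by 0.45. Lmnb1, the nuclear lamin often lost in senescent cells and named here after its value was seen, rose 2.21-fold (log2 fold change 1.14, SE 0.20, adjusted p = 0.000299). Whole lung holds many kinds of cell, and these values do not say whether division genes and inhibitors rose in the same cells.

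The secretory genes linked to senescence held the widest range. Of 27, 18 were called higher and 3 lower in WT bleomycin than in control, with a median log2 fold change of 1.19, beside 25% and 23.9% of all genes tested. Timp1, an inhibitor of matrix metalloproteinases, rose by 4.58, the matrix cytokine Spp1 by 3.81 and the monocyte chemokine Ccl2 by 3.48 on the log2 scale (adjusted p = 2.76e-07, 2.2e-08 and 2.24e-06). Igfbp3, Vegfa and Igfbp5 fell by 2.67, 0.54 and 0.39 (adjusted p = 9.8e-08, 2.21e-05 and 0.00648). Spp1 also stands in the list of monocyte-derived macrophage markers below.

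**Figure D4:**
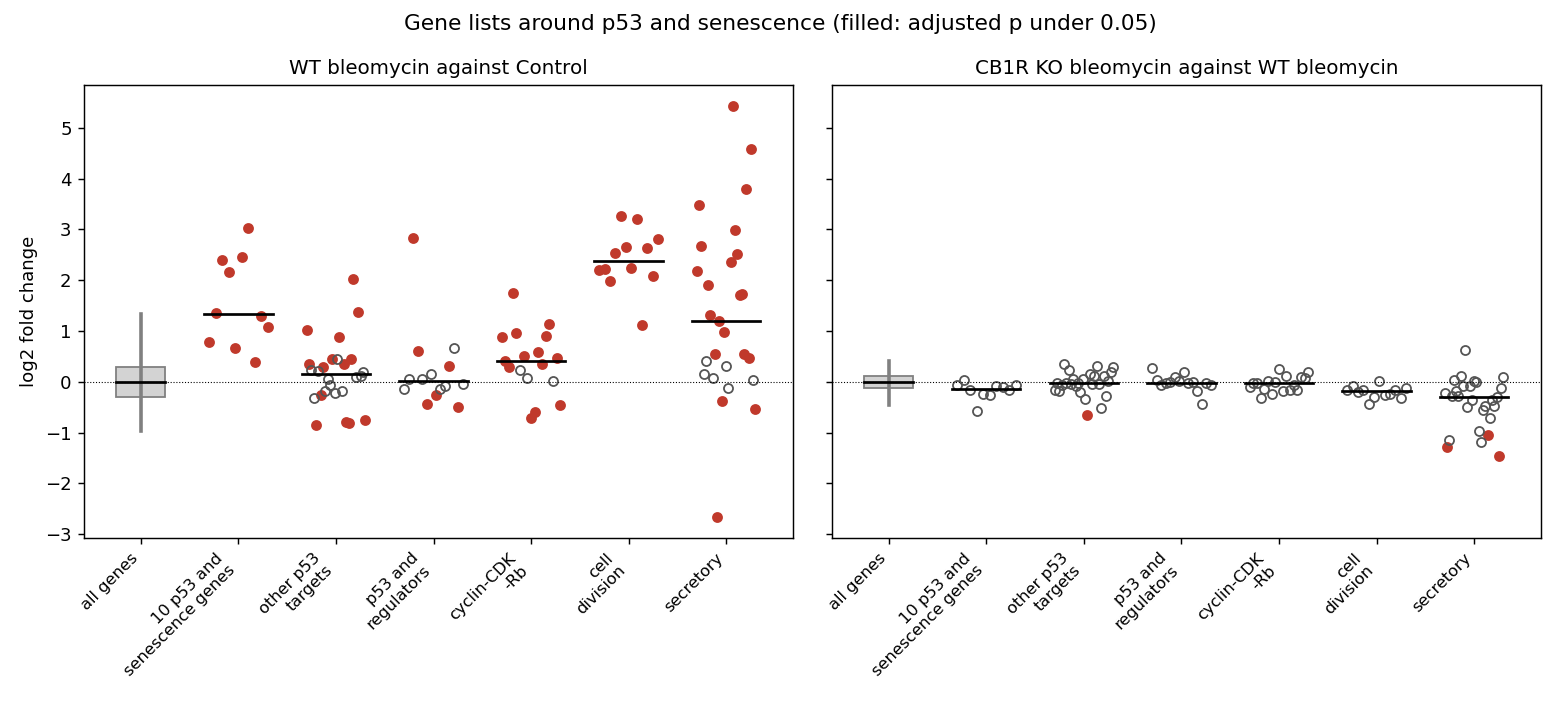
Log2 fold change of each gene in the 10-gene set and in 5 further lists, for WT bleomycin against control (left) and CB1R KO against WT bleomycin (right), with a bar at each list's median and filled points for an adjusted p under 0.05. The grey box and line at the left of each panel give the quartiles and the 5th to 95th percentiles of all 15315 genes tested. Filled points on the right are 3 secretory genes and 1 other p53 target, all below 0.

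Between the bleomycin groups, 4 of the 96 list genes were called, all lower in the libraries labelled CB1R KO, where 0.62% of genes tested were called lower. DESeq2 called 11, of which 3 were higher and 8 lower, and 1 gene was called higher without control replicate 26 (1 of 8) and without CB1R KO replicate 10 (1 of 7). Of the 4 called by edgeR over all libraries, 3 belonged to the secretory list, whose median log2 fold change was -0.30. Timp1 held 96.0, 117, 123, 143 and 145 CPM in WT bleomycin and 30.1, 32.3, 76.4 and 42.3 CPM in CB1R KO bleomycin, without overlap, as 3.1% of genes tested were in this direction. Both bleomycin groups lay above the control libraries, which held 3.27, 9.73, 4.29 and 3.42 CPM.

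None of the 4 calls was firm. The matrix metalloproteinase Mmp3 was at 62.0 ± 13.1 CPM in WT bleomycin and 29.8 ± 4.86 CPM in CB1R KO bleomycin (log2 fold change -1.06, adjusted p = 0.0177), Timp1 at 125 ± 19.9 and 45.3 ± 21.4 CPM (-1.46, adjusted p = 0.0314) and Ccl2 at 9.80 ± 1.14 and 4.06 ± 1.88 CPM (-1.29, adjusted p = 0.0478). The polo-like kinase Plk3, the only call among the other p53 targets, was at 24.5 ± 3.84 and 15.4 ± 2.30 CPM (-0.66, adjusted p = 0.0281). In each of the 4 genes the groups did not overlap, and each of the 4 lost its call without CB1R KO replicate 8, 9 or 11. Plk3 and Timp1 also lost it without WT bleomycin replicate 5, 4-B2 or 7, Timp1 without WT bleomycin replicate 2, and Ccl2 without any 1 of the WT bleomycin libraries or without control replicate 21 or 24. Over all libraries left out in turn, the log2 fold changes stayed between -1.16 and -0.94 for Mmp3, -1.83 and -1.31 for Timp1, -1.51 and -1.05 for Ccl2, and -0.76 and -0.59 for Plk3. With the 3 libraries of the other label style left out, all 4 lost their call. No gene of the division list, of the cyclin, CDK and Rb axis or of the p53 regulators was called. At an unadjusted p under 0.05 there were 0 of 12, 3 of 17 and 3 of 14 in these lists, 9 of 26 among the other p53 targets and 15 of 27 among the secretory genes, beside 17% of all genes tested. DESeq2 called 1 gene of the cyclin, CDK and Rb axis and 0 in the other 2 lists. The division genes named above varied widely among the CB1R KO libraries. Mki67 ran from 53.6 to 124 CPM there and from 80.0 to 115 CPM in WT bleomycin. Top2a ran from 40.4 to 123 and from 65.5 to 102 CPM, and Cdk1 from 8.76 to 30.6 and from 18.3 to 28.7 CPM. The lack of calls in the division list thus does not show that levels were alike.

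Markers of cell types moved with bleomycin in the same libraries. Summed fibroblast markers lay between 1455 and 1815 CPM in control and between 6167 and 9223 CPM in WT bleomycin. Collagen genes made up most of that sum. From control to WT bleomycin the mean of Col1a1 rose from 237 to 2080 CPM, Col1a2 from 428 to 2267 and Col3a1 from 429 to 2987. Lum rose from 9.65 to 28.3 CPM, whereas Pdgfra (373 and 356 CPM) and Dcn (177 and 184 CPM) hardly moved. Summed markers of monocyte-derived macrophages lay between 343 and 456 CPM in control and between 2005 and 2684 CPM in WT bleomycin. Within that sum Spp1 alone had means of 116 CPM in control and 1616 CPM in WT bleomycin. Summed markers of transitional alveolar epithelium lay between 695 and 814 CPM in control and between 1179 and 1564 CPM in WT bleomycin. Of these lists, 4 of 6, 5 of 6 and 6 of 7 markers were called higher, beside 25% of all genes tested. Called lower, beside 23.9%, were 5 of 7 type II alveolar markers, 6 of 6 capillary endothelial, 6 of 6 B cell, 6 of 6 cardiac muscle, and 4 of 5 neutrophil markers. Also called lower were 2 of 5 adipocyte, 2 of 6 alveolar macrophage, 1 of 5 T cell and 1 of 6 ciliated markers, counts too small to be set apart from that share. Car4 stands in the capillary and in the alveolar macrophage list, and its lower call is counted in each. Of 6 type I alveolar markers 1 was called higher and 2 lower. No measured marker was at 0 in all libraries of a group. Heart muscle transcripts were present in every group (654 to 1658 CPM in control, 109 to 432 in WT bleomycin and 441 to 788 in CB1R KO bleomycin). Their part in the levels of the 10 genes was not tested.

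In CB1R KO against WT bleomycin lungs, 3 of 7 type II alveolar markers were called higher, as were 0.359% of genes tested, and 1 of 7 transitional epithelial markers was called lower, and no marker of the other 11 lists was called. At an unadjusted p under 0.05, beside 17% of all genes tested, there were 6 of 7 type II, 5 of 6 cardiac muscle, 4 of 5 adipocyte, 4 of 7 transitional epithelial, and 3 of 6 each of the fibroblast, type I and monocyte-derived macrophage markers, 2 of 6 each of the capillary, alveolar macrophage and ciliated markers, 1 of 5 T cell markers, and 0 of the neutrophil and B cell markers. Estimates were above 0 for every tested type II, cardiac muscle, adipocyte, capillary, B cell and T cell marker. They were below 0 for every transitional epithelial and fibroblast marker. Summed type II markers were at 13804 to 21687 CPM in CB1R KO and 11902 to 13559 CPM in WT bleomycin. CB1R KO replicate 10 had the lowest type II sum, at 13804 CPM beside 18992 to 21687 CPM in the other 3, and the highest Timp1 of its group. In the fibroblast sum replicates 10 and 11 (7155 and 6883 CPM) lay above replicates 8 and 9 (4411 and 4370 CPM). Instead of 150, 653 of all genes were called without replicate 10. Leaving out replicate 8, 9 or 11 gave 9, 1 and 3 calls. Summed transitional epithelial markers were at 1043 to 1244 and 1179 to 1564 CPM, and summed fibroblast markers at 4370 to 7155 and 6167 to 9223 CPM. Their part in the lower Timp1, Mmp3 and Ccl2 values was not tested.

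Among the genes tested, those whose profile over the 13 libraries lay nearest to that of Cdkn1a were Eda2r, Cgref1, Gdf3, Vcan and C1qc. The root mean square difference of log2 CPM, each gene taken relative to its control mean, was 0.34 for Eda2r and 0.35 for Cgref1. For Gdf15 the nearest were Syt12, Msr1, Igf1, C1qb and Dkk2, from 0.17 for Syt12 to 0.45 for Dkk2. Nearness here follows mostly from the size of the step between control and bleomycin lungs, which all these libraries share. Eda2r was thus the 1 member of the 10 genes among the 5 genes nearest to Cdkn1a.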

How the data were processed

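Each sample is read here as the lung library of 1 mouse, and p-values weigh group differences against the spread between these libraries. WT bleomycin replicates 4 and 4-B2 share a number in their labels. Whether that number stands for 1 mouse is not given in the sources used here. Per the labels and the study's methods, the authors quantified paired-end reads of 150 bases with kallisto on Ensembl release 105 (build GRCm39 in the submitters' processing notes) and summed protein-coding transcripts per gene. The deposited tables hold estimated counts, not normalized and 70.5% of them not whole, and the deposited TPM values. The TPM table has 1 column that matches no sample and was not used.

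Estimated counts were rounded here, filtered with filterByExpr (15315 of 20270 genes kept) and tested with edgeR 4.0.16 (R 4.3.3) by quasi-likelihood over all 13 libraries with TMM scaling, 1 coefficient per group and Benjamini-Hochberg adjustment at 0.05. CPM are the same counts scaled by TMM library size, and log2 CPM used a prior count of 2. This replaced the authors' DESeq2, which was run as an alternative (1.42.0), as was limma 3.58.1 on log2(TPM + 1) and log2(TPM + 0.1). Standard errors of log2 fold changes had medians of 0.11 in both comparisons with WT bleomycin and 0.12 in CB1R KO bleomycin against control. Scripts were tested on simulated data. Figures used matplotlib 3.10.9.

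The 10 genes, the 5 pathway lists and the 13 marker lists were chosen with earlier results of these data known, and 1 secretory gene is not reported here. All 10 genes were named, of each pathway list up to 3 genes a direction, by rising p, among the calls of WT bleomycin against control and every gene called in CB1R KO against WT bleomycin, and the 5 genes nearest in profile to Cdkn1a and to Gdf15. Labels come in capital and in lower-case style, the first for control replicate 26 and WT bleomycin replicates 4-B2 and 7 only. What the styles stand for is not given in the sources used here. Alternatives were other filters and scalings, a fit of the 2 groups only, label style, thinning of CB1R KO replicate 11 and leaving out each library.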

Additional observations from a re-analysis of the deposited data

How the results depend on the processing

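Under 24 alternatives, 13 of which left out 1 library each, all of the 10 genes that were tested stayed higher in WT bleomycin than in control, 10 in each alternative but 1. With at least 10 counts in every library Cdkn2a was not tested and 9 were called. In CB1R KO against WT bleomycin 0 of the 10 were called in every alternative, with 0 to 3 at an unadjusted p under 0.05. The only change of sign was that of Bax in this comparison, 0.013 with lower-case labels only. Besides the calls given above, Cdkn2b in CB1R KO bleomycin against control lost its call with lower-case labels only (0.37, adjusted p = 0.0663). Of the 96 list genes, 4 were called in CB1R KO against WT bleomycin, but 11 with DESeq2, 2 with label style as a term, 0 with lower-case labels only, and 0 to 8 with 1 library left out. Secretory genes called there numbered 3, but 8 with DESeq2 and 0 with lower-case labels only, other p53 targets 1, but 2 with DESeq2 and 0 with 2 groups only, label style as a term or lower-case labels only. The p53 regulators called in CB1R KO bleomycin against control numbered 4, but 2 with limma at either pseudocount or with lower-case labels only, and also without control replicate 24, control replicate 26 or CB1R KO replicate 11. All genes called in CB1R KO against WT bleomycin numbered 150, but 640 with DESeq2, 93 with limma on log2(TPM + 0.1), 88 with 2 groups only, 41 with label style as a term, 6 with lower-case labels only, and 1 to 653 with 1 library left out. Why these counts moved was not tested. In WT bleomycin against control, Mdm4 and Trp73 lost their calls with limma and with lower-case labels only, and Igfbp5 with lower-case labels only. No paired analysis was possible because the groups share no replicate numbers. Control counts of 7 to 28 limit the precision for Cdkn2a and Gdf15, as do lower ones for Chek1.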
